A study of Arabidopsis thaliana with 12 samples.

Results

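HD-ZIP III, KANADI and YABBY genes, together with AS1, encode the transcription factors that set the upper (adaxial) and lower (abaxial) sides of a leaf. The 10 loci followed here are PHB (AT2G34710), PHV (AT1G30490), REV (AT5G60690), HB15 (AT1G52150) and HB-8 (AT4G32880) of the HD-ZIP III family, KAN1 (AT5G16560) and KAN2 (AT1G32240) of the KANADI family, AS1 (AT2G37630), and FIL (AT2G45190) and YAB3 (AT4G00180) of the YABBY family. They were chosen by locus name, and all 10 were among the 20777 loci measured. Transcripts were quantified on Affymetrix ATH1 arrays in the gra1-D, gra2-D and gra3-D mutants and in wild type (WT), with 3 arrays per group and 1 biological replicate per array. All 4 groups were in the Col-0 background and grew in vitro on MS medium at 22 °C with days of 16 h light and nights of 8 h, and RNA came from the vegetative part of stage 1.03 seedlings. Each mutant is a grandifolia line, which the submitters link to a chromosomal duplication, and the labels do not say whether the plants were homozygous, how many plants made up an extract or whether arrays of equal number were grown together.

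In Arabidopsis leaves, HD-ZIP III proteins carry a homeodomain, a leucine zipper and a START domain. They promote adaxial fate, shoot meristem activity and vascular patterning, and their transcripts are cleaved under the guidance of a pair of related microRNAs. KANADI proteins are GARP-type repressors that promote abaxial fate and oppose the HD-ZIP III genes. YABBY proteins act in the abaxial side and in blade outgrowth together with the LUG and SEU co-repressors, and AS1, a MYB protein, works with AS2 to keep KNOX meristem genes silent in leaves.

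The values are log2 expression values from RMA, so a difference of 1 is a doubling, and array medians lay between 6.36 and 6.43. The leaf photosynthesis genes RCA, LHCA3 and LHCB5 averaged 14.2 to 14.3 on every array, while 8 root markers averaged 4.16 to 4.37 and 5 floral markers 3.85 to 4.11. All 5 floral markers and 7 of 8 root markers had means under 5, a level taken as close to background. Limma called 0 markers of these lists in any mutant, with 1 floral marker per mutant at an unadjusted p under 0.05. None of the 10 polarity genes had a mean under 5, and all except KAN2 had a mean of at least 6. RMA values of different loci come from different probes, so levels were compared between groups and not between genes.

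Among the 10 genes only HB-8 passed limma's adjusted threshold against WT, and it did so in gra2-D and gra3-D. HB-8, a gene of procambium and early xylem, had values of 6.33, 6.24 and 6.12 on the gra1-D arrays. On the gra2-D arrays it had 6.76, 6.87 and 6.83, and on the gra3-D arrays 7.01, 6.75 and 6.80, against 6.24, 6.20 and 6.33 in WT. The gra2-D and gra3-D arrays all lay above every WT and gra1-D array, while gra1-D and WT overlapped.

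Limma put the change of HB-8 at 1.47-fold in gra2-D against WT (log2 0.56 ± 0.083, SE, n = 3 per group, adjusted p = 0.000443) and at 1.51-fold in gra3-D (0.60 ± 0.083, adjusted p = 0.000345). In gra1-D the log2 change was -0.03 ± 0.083, with a 95% interval of -0.20 to 0.15 (adjusted p = 0.923). The mutants themselves differed in the same way. For HB-8, gra1-D minus gra2-D was -0.59 ± 0.083 (limma, adjusted p = 0.00109) and gra1-D minus gra3-D was -0.62 ± 0.083 (adjusted p = 0.00212), while gra2-D minus gra3-D was -0.04 with an interval of -0.21 to 0.14. Since whole seedling shoots were measured, more HB-8 RNA per cell and more cells with HB-8 RNA cannot be told apart.

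**Figure D1:**
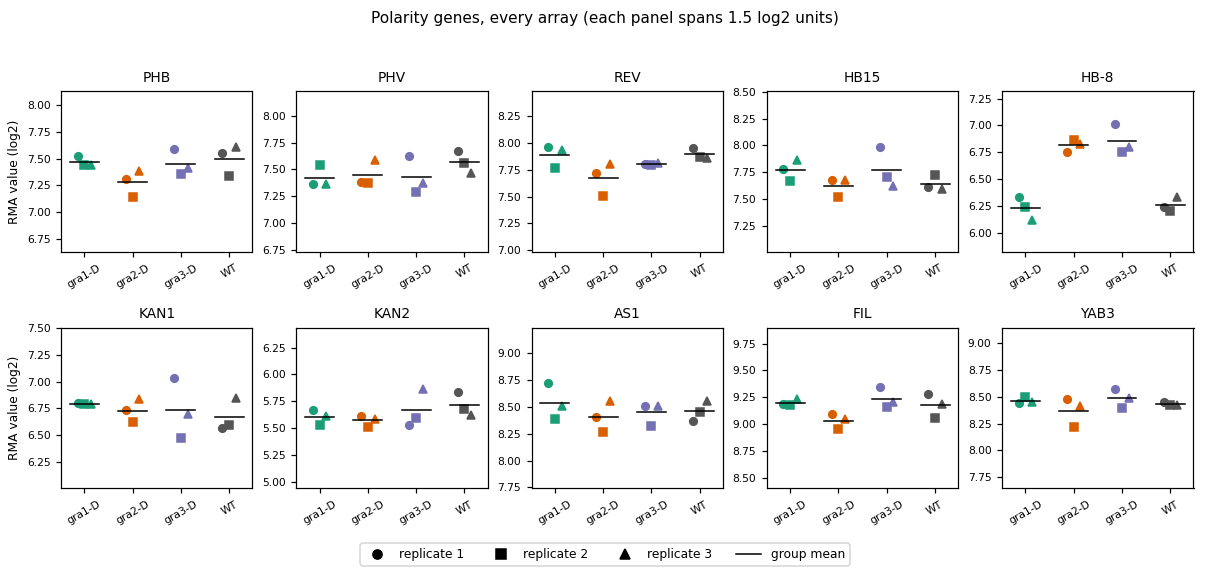
RMA values (log2) of the 10 polarity genes on each of the 12 arrays, with symbols for replicates and black lines for group means. Only in the HB-8 panel do 2 groups stand clear of the others, with gra2-D and gra3-D at 6.75 to 7.01 against 6.12 to 6.33 in gra1-D and WT.

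Limma thus called 0 of the 10 genes for gra1-D and 1 of 10 for each other mutant, counts to be read against all loci. It called 2.82% of them higher and 2.76% lower in gra1-D, 5.24% higher and 6.23% lower in gra2-D, and 3.13% higher and 2.97% lower in gra3-D. With arrays centred on chromosomes 1, 2, 3 and 5, the share of higher calls was 66.2% in place of 50.5% in gra1-D, 53.8% in place of 45.7% in gra2-D and 60.2% in place of 51.3% in gra3-D. With the block over gra1-D, gra2-D and WT, 1820 in place of 1160 loci were called in gra1-D. Between mutants, 1.23% of loci differed for gra1-D against gra2-D, 0.221% for gra1-D against gra3-D and 0.89% for gra2-D against gra3-D. HB-8 was called in the first and second of these comparisons and none of the other 9 genes in any of the 3, against 2, 0 and 1 of them at an unadjusted p under 0.05.

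HB-8 lies on chromosome 4, where each mutant has a raised run of loci that reaches the end of the chromosome. The bounds of the runs come from an earlier segmentation of these same arrays. In the order of locus names, HB-8 is 5 array loci after the first locus of the run in gra3-D, AUR1, and 146 after the first locus in gra2-D, AT4G31170. The run of gra1-D starts 56 array loci after HB-8, at DHS2. None of the other 9 genes lies in a run.

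The expressed loci next to HB-8 (mean of at least 6 over all 12 arrays) showed the same division between mutants. The runs were drawn from these same arrays, so this division is no separate evidence for them. AT4G32870, at 5.70 in WT and 5.87 in gra1-D, reached the mean of 6 only through the raised gra2-D and gra3-D arrays. On one side, PFK6, nPAP and AT4G32870 rose in gra2-D by 0.80, 0.71 and 0.97 on the log2 scale, and in gra3-D by 0.63, 0.77 and 1.05. On the other side, GATA9, AT4G32900 and AT4G32910 rose in gra2-D by 0.82, 0.78 and 0.68, and in gra3-D by 0.82, 0.89 and 0.60. All 12 of these changes passed limma's adjusted threshold, with the largest adjusted p at 0.000643 for PFK6 in gra3-D. In gra1-D, AT4G32910 was lower by -0.27 ± 0.070 (adjusted p = 0.0389) and the other 5 loci were not called.

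**Figure D2:**
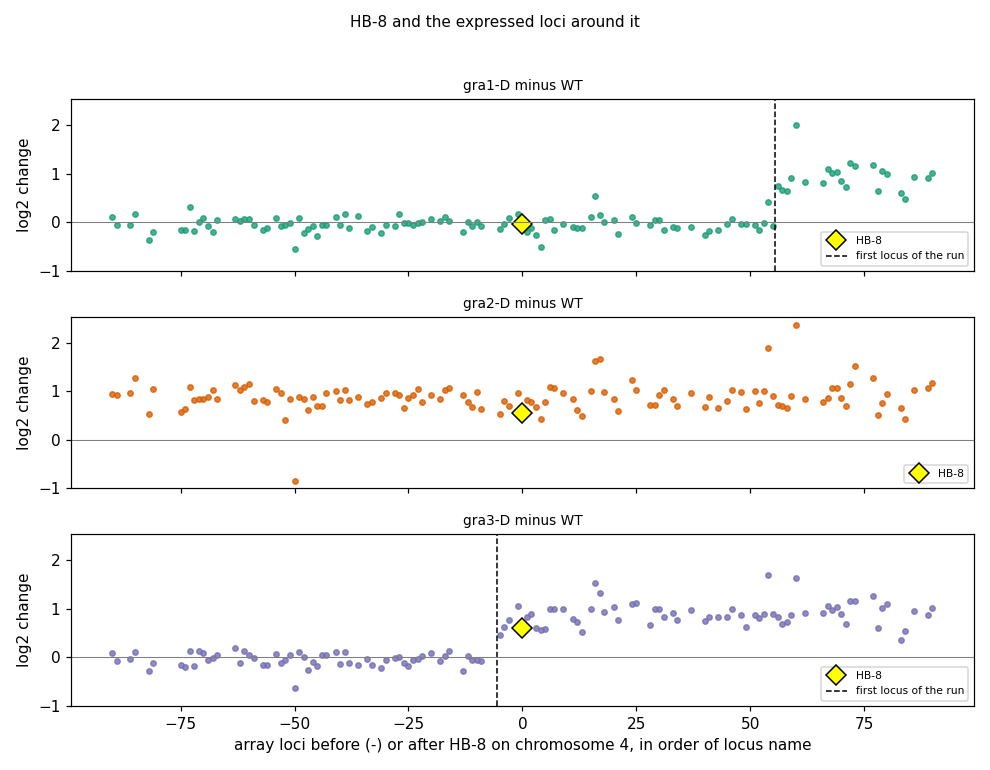
Log2 change against WT of expressed loci around HB-8, by the number of array loci before or after it, with 1 panel per mutant. HB-8 (diamond) stands at -0.03 in gra1-D, ahead of the dashed start of the run, and at 0.56 in gra2-D and 0.60 in gra3-D, inside the run.

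HB-8 rose less than most expressed loci of its run. The median log2 change was 0.87 over the 520 expressed loci of the run in gra2-D and 0.87 over the 426 in gra3-D. HB-8 departed from it by -0.31 ± 0.083 in gra2-D (95% interval -0.49 to -0.13, limma SE, adjusted p = 0.0161 over the 520 loci) and by -0.28 ± 0.083 in gra3-D (-0.46 to -0.099, adjusted p = 0.0385 over the 426 loci). Of the other expressed loci, 49 of 519 (9.44%) rose less than HB-8 in gra2-D. In gra3-D 46 of 425 (10.8%) did. The departure was not peculiar to HB-8, since 130 and 71 loci of the runs departed in either direction at the same threshold.

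The mean of HB-8 over all arrays was 6.54. Among run loci within 1 log2 unit of that mean, the median change was 0.85 in gra2-D (141 loci) and 0.87 in gra3-D (110 loci), and HB-8 minus these medians was -0.28 and -0.27. There 16 of 140 other loci rose less in gra2-D, and 22 of 109 did in gra3-D. These loci were also picked by their mean over all arrays, so their medians can be lifted in the same way. Per array, each locus was also taken relative to its own WT mean. The change of HB-8 was then set against the median change of its expressed neighbours in the stretch from AT4G32830 to AT4G33500. The difference was -0.39, -0.18 and -0.32 for the gra2-D arrays and -0.13, -0.37 and -0.33 for the gra3-D arrays. All 6 arrays had the same sign, whereas gra1-D arrays ran from -0.10 to 0.15. WT arrays ran from -0.021 to 0.029, but their own mean was the reference, so their small size carries no information.

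Leaving out any 1 array kept the departure between -0.344 and -0.265 in gra2-D and between -0.356 and -0.233 in gra3-D, but not always its call. In gra2-D it was no longer called without WT replicate 3 (adjusted p = 0.0581) or gra2-D replicate 1 (0.0767). In gra3-D it was no longer called without WT replicate 1, 2 or 3 or gra3-D replicate 2 or 3 (adjusted p = 0.0588, 0.0758, 0.111, 0.133 and 0.125), nor with only the gra3-D and WT arrays (0.0709).

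**Figure D3:**
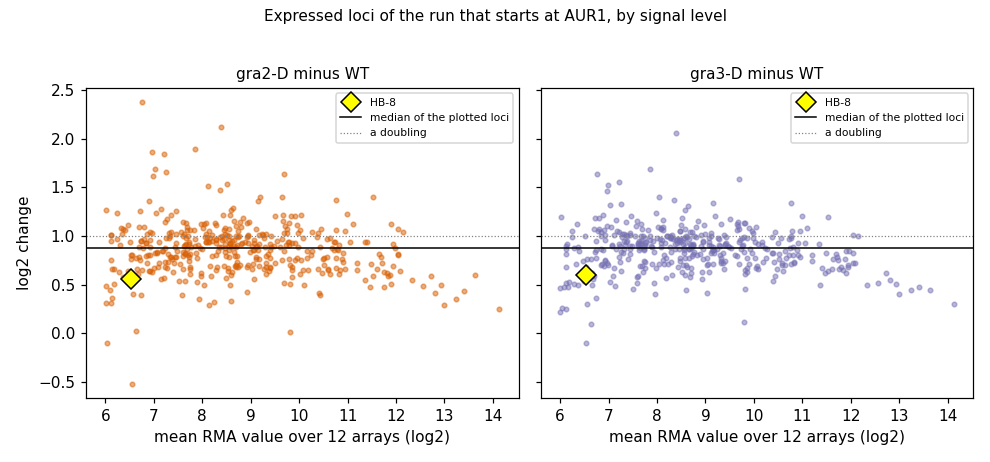
Log2 change against WT in gra2-D and gra3-D of the expressed loci from AUR1 to the end of chromosome 4, by mean RMA value. HB-8 (diamond), at a mean of 6.54, lies below the black median line in both panels.

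The other HD-ZIP III genes lie outside the runs and none was called. PHB, which promotes adaxial fate, spanned 7.44 to 7.53 in gra1-D and 7.36 to 7.59 in gra3-D. Its gra2-D arrays had values of 7.31, 7.15 and 7.39, against 7.56, 7.34 and 7.61 in WT. Its log2 change was -0.22 ± 0.092 in gra2-D (95% interval -0.42 to -0.023, adjusted p = 0.159), -0.03 ± 0.092 in gra1-D and -0.05 ± 0.092 in gra3-D. The gra2-D and WT arrays overlapped, but between arrays of equal number the difference was -0.25, -0.19 and -0.22, of 1 sign in all 3. With replicate number as a block over gra1-D, gra2-D and WT, limma gave PHB in gra2-D an adjusted p of 0.0604.

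REV, which acts in meristem initiation, vascular patterning and adaxial fate, had values of 7.96, 7.76 and 7.93 on the gra1-D arrays. On the gra2-D arrays it had 7.72, 7.50 and 7.80, and on the gra3-D arrays 7.80, 7.80 and 7.82, against 7.95, 7.87 and 7.86 in WT. Every gra2-D and gra3-D array lay below every WT array, while gra1-D overlapped WT. The log2 changes were -0.22 ± 0.083 in gra2-D (adjusted p = 0.117), -0.09 ± 0.083 in gra3-D (adjusted p = 0.670) and -0.01 ± 0.083 in gra1-D (adjusted p = 0.970), so limma did not call them. By number, gra2-D minus WT was -0.23, -0.36 and -0.06, and with the block its adjusted p was 0.0623.

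For PHV, a close paralog of PHB, the gra1-D mean was 7.42 ± 0.10, the gra2-D mean 7.45 ± 0.12, the gra3-D mean 7.43 ± 0.17 and the WT mean 7.57 ± 0.10 (SD, n = 3 each). All 4 groups overlapped, and the adjusted p of the mutants against WT ran from 0.521 to 0.557. HB15, the gene most often paired with HB-8 in vascular development, averaged 7.77 ± 0.097 in gra1-D, 7.62 ± 0.089 in gra2-D, 7.77 ± 0.19 in gra3-D and 7.64 ± 0.070 in WT. The log2 change of HB15 stood at 0.13 for gra1-D, -0.02 for gra2-D and 0.12 for gra3-D, each with an SE of 0.094. In gra2-D and gra3-D, where HB-8 was higher, the intervals of HB15 ran from -0.22 to 0.18 and from -0.079 to 0.33.

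The KANADI genes were likewise not called. KAN1, the abaxial regulator that gives the family its name, averaged 6.79 ± 0.0071 in gra1-D, 6.73 ± 0.11 in gra2-D, 6.74 ± 0.28 in gra3-D and 6.67 ± 0.15 in WT. Its arrays in gra3-D, at 7.03, 6.48 and 6.70, held both the highest and the lowest of the 12 values. KAN2, which overlaps with KAN1 in function, averaged 5.60 ± 0.069 in gra1-D, 5.57 ± 0.055 in gra2-D, 5.66 ± 0.18 in gra3-D and 5.71 ± 0.11 in WT. Its gra2-D arrays, at 5.62, 5.51 and 5.59, all lay below the lowest WT array at 5.63, but the difference of -0.14 ± 0.090 was not called (limma, adjusted p = 0.387).

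FIL, the YABBY gene of the abaxial leaf margin and blade, had values of 9.09, 8.96 and 9.05 in gra2-D and 9.35, 9.15 and 9.21 in gra3-D, against 9.28, 9.06 and 9.19 in WT. The gra2-D arrays lay below every gra3-D and gra1-D array and overlapped WT, while gra2-D minus WT by number was -0.19, -0.10 and -0.14. FIL stood at -0.14 ± 0.076 in gra2-D against WT (adjusted p = 0.281), and gra2-D minus gra3-D was -0.20 ± 0.076, with an unadjusted limma p of 0.0192 and an adjusted p of 0.383. YAB3, which acts redundantly with FIL, averaged 8.46 ± 0.026 in gra1-D, 8.37 ± 0.14 in gra2-D, 8.49 ± 0.088 in gra3-D and 8.43 ± 0.018 in WT, and its adjusted p against WT was 0.680 or higher.

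AS1 averaged 8.54 ± 0.17 in gra1-D, 8.41 ± 0.15 in gra2-D, 8.45 ± 0.11 in gra3-D and 8.46 ± 0.093 in WT. All groups overlapped, and the log2 changes were 0.08, -0.05 and -0.01, each with an SE of 0.10.

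**Figure D4:**
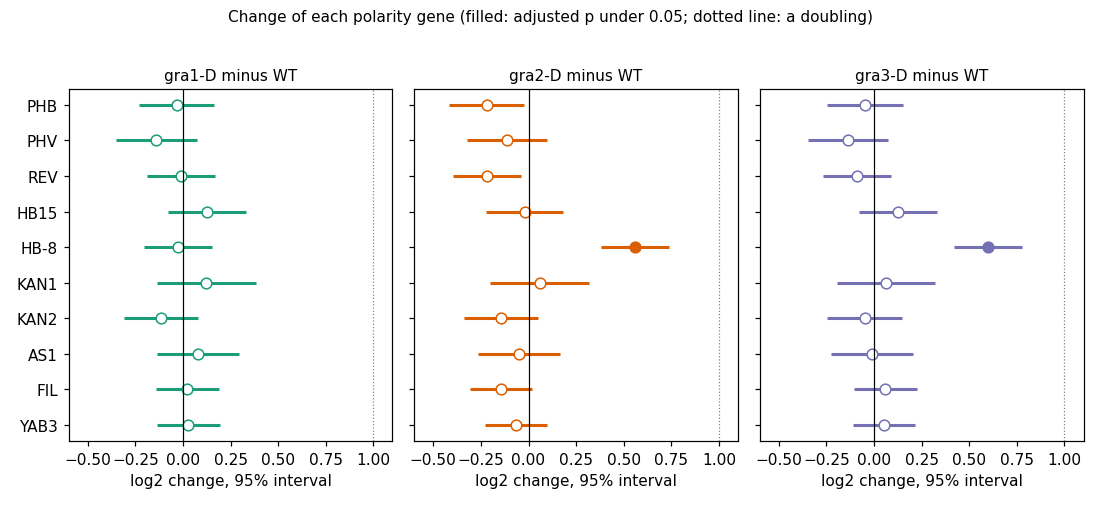
Log2 change of each polarity gene in gra1-D, gra2-D and gra3-D against WT, with 95% limma intervals. Filled points, adjusted p under 0.05, mark HB-8 in gra2-D (0.56) and gra3-D (0.60), and the other 28 points are open and lie between -0.22 and 0.13.

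Over the 9 genes outside the runs, limma called 0 in each mutant against WT, with 0, 2 and 0 at an unadjusted p under 0.05 (gra1-D, gra2-D, gra3-D). Among all loci outside the runs it called 3.74%, 9.09% and 4%. In gra1-D 0 of the 9 genes had arrays that did not overlap with WT, against 21.1% of loci outside the runs. In gra2-D 2 of 9 did (REV and KAN2), against 25.2%, and in gra3-D 1 of 9 (REV), against 20.8%. None of the intervals of the 9 genes reached below 0.748-fold or above 1.30-fold of WT. Each interval holds for its own gene and mutant, so these limits do not cover all the values jointly. They concern the signal of whole seedling shoots, and a larger change in part of the cells was not tested. The median change of the 9 genes stood at 0.02 for gra1-D, -0.11 for gra2-D and -0.01 for gra3-D, where the medians of all loci were -0.015, -0.00017 and -0.019. The 3 comparisons share the WT arrays.

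In gra2-D, 8 of the 9 genes stood below WT, and the lowest values came mostly from 1 array. Replicate 2 of gra2-D held the lowest of the 12 values for 7 of the 9 genes (PHB, REV, HB15, KAN2, AS1, FIL and YAB3), and it held the lowest value for 14.1% of all loci with a mean of at least 6. Without it, the gra2-D changes were -0.15 for PHB, -0.13 for REV and -0.11 for FIL. Against the WT array of equal number, 4 of the 9 genes (PHB, REV, KAN2 and FIL) were lower in gra2-D in all 3 pairs and 0 were higher in all 3, against 26.2% and 20.6% of loci outside the runs. The highest value of HB-8 in gra2-D, 6.87, came from the same array.

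Of 9 other polarity factors measured, among them KAN3, YAB5, AS2 and the abaxial auxin response factors ETT, ARF4 and ARF2, limma called 0 in any mutant, with 3, 0 and 1 at an unadjusted p under 0.05 (gra1-D, gra2-D, gra3-D). AS2, the partner of AS1, stood at 0.12, 0.10 and 0.12 (SE 0.087). ETT stood at 0.16, 0.04 and 0.15 (SE 0.074), and ARF4 at 0.02, -0.19 and -0.00 (SE 0.12). ARF2 stood at 0.25, 0.13 and 0.22 (SE 0.078), with a limma adjusted p of 0.0915 in gra1-D and 0.124 in gra3-D. In both of these mutants every array of ETT and of ARF2 lay above WT. Of all loci outside the runs, 21.1% and 20.8% had arrays that did not overlap with WT there. The median log2 change of these 9 factors was 0.12, 0.04 and 0.12. The lists of further pathway genes were drawn up with results of these arrays known.

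Among partners and targets of the HD-ZIP III proteins, ZPR1 and HAT2 were called, both in gra2-D. ZPR1, a little zipper protein that HD-ZIP III factors induce and that blocks their dimers, had values of 6.22, 6.04 and 6.27 in gra2-D against 5.77, 5.67 and 5.89 in WT. All 3 gra2-D arrays lay above WT, and ZPR1 rose 1.32-fold (log2 0.40 ± 0.097, limma adjusted p = 0.0144). The ZPR1 change was 0.04 in gra1-D and 0.21 in gra3-D (adjusted p = 0.881 and 0.288). Its call in gra2-D ended without WT replicate 2 (adjusted p = 0.0622) or gra2-D replicate 3 (0.0633). ZPR3 was close to background in all groups, with means of 3.25 to 3.29.

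HAT2, an HD-ZIP II gene that REV activates and auxin induces, had values of 8.23, 8.01 and 8.07 in gra2-D against 9.16, 8.49 and 8.84 in WT. HAT2 fell to 0.604-fold in gra2-D (log2 -0.73 ± 0.15, limma adjusted p = 0.00624), and no array overlapped with WT, whose own SD was 0.34. In gra1-D and gra3-D its log2 change was -0.33 ± 0.15 and -0.30 ± 0.15 (adjusted p = 0.274 and 0.331), and limma did not call HAT2 different between any 2 mutants. Of the 8 partners and targets measured, 1 was called higher and 1 lower in gra2-D, against 5.24% and 6.23% of all loci. In gra1-D and gra3-D 0 were called, and 1 and 0 had an unadjusted p under 0.05. The median change of the 8 genes was -0.04, -0.13 and -0.03 over the mutants in order of number. Of the other HD-ZIP II genes measured, HAT1 (-0.33 ± 0.13, adjusted p = 0.135) and HAT3 (-0.20 ± 0.097, adjusted p = 0.233) were not called in gra2-D. HB-2 went the other way there, at 0.14 ± 0.14 (limma, adjusted p = 0.619). HB4, close to background, stood at -0.06 ± 0.081 (adjusted p = 0.712).

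LUG, the co-repressor that YABBY proteins recruit, lies in the part of the run that gra2-D alone carries. It spanned 8.72 to 8.91 in gra1-D and 8.78 to 8.89 in gra3-D. Its gra2-D arrays had values of 9.80, 9.81 and 9.88, against 8.77, 8.88 and 8.96 in WT. LUG rose 1.95-fold in gra2-D (log2 0.96 ± 0.074, limma adjusted p = 1.23e-06) and stood at -0.07 and -0.03 in gra1-D and gra3-D. Its adaptor SEU was at -0.17 ± 0.082 in gra2-D (adjusted p = 0.237). The SEU relative SLK2 rose in gra2-D by 0.36 ± 0.10 (adjusted p = 0.0333) and stood at 0.36 ± 0.10 in gra3-D (adjusted p = 0.0555). The SLK2 call ended without WT replicate 1 or 3 or any 1 of the 3 gra2-D arrays (adjusted p up to 0.133). Of these 5 co-repressor genes, 2 were called higher in gra2-D (LUG, inside the run, and SLK2), against 5.24% of all loci. In gra1-D and gra3-D 0 were called, and 1 each had an unadjusted p under 0.05. The median log2 change of the 5 genes was -0.01, 0.10 and 0.07 in the same order.

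**Figure D5:**
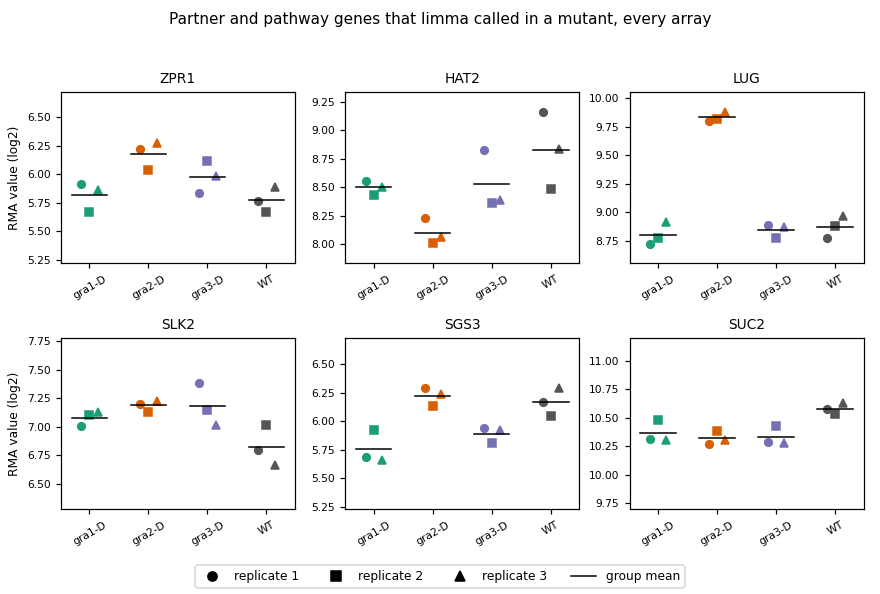
RMA values (log2) of ZPR1, HAT2, LUG, SLK2, SGS3 and SUC2 on each of the 12 arrays, with symbols for replicates and black lines for group means. LUG shows the widest gap, with gra2-D at 9.80 to 9.88 and every other array at 8.96 or lower.

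The small RNA pathway restrains HD-ZIP III transcripts through microRNAs and ETT and ARF4 through trans-acting small RNAs. Of its 11 genes, SGS3, needed for the trans-acting RNAs, was the 1 called, lower in gra1-D, where 2.76% of all loci were. SGS3 had values of 5.68, 5.93 and 5.66 in gra1-D against 6.17, 6.04 and 6.29 in WT and fell by 0.41 ± 0.089 (limma, adjusted p = 0.0136). In gra3-D SGS3 stood at -0.28 ± 0.089 (adjusted p = 0.0940), with every array below WT, and in gra2-D at 0.05 (adjusted p = 0.789). The SGS3 call ended without WT replicate 3 (adjusted p = 0.0649) or gra1-D replicate 1 (0.0661) or 3 (0.0660). AGO10, which sequesters the microRNAs of the HD-ZIP III genes, stood at -0.00, 0.03 and 0.02 in the 3 mutants (SE 0.063), and AGO1, their effector, at -0.06, -0.09 and -0.03 (SE 0.078). In gra2-D and gra3-D 0 of the 11 genes were called by limma, with 1 and 2 at an unadjusted p under 0.05. The median log2 change over the 11 genes was -0.00, 0.05 and 0.02.

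Because HD-ZIP III genes are transcribed in meristems and vascular strands, markers of both were read beside them. The 10 meristem and boundary markers averaged 4.65 to 4.83 across gra1-D arrays, 4.78 to 4.87 in gra2-D and 4.82 to 4.90 in gra3-D, against 4.73 to 4.80 in WT, with 8 of the 10 under a mean of 5. Limma called 0 of them, with 0, 1 and 2 at an unadjusted p under 0.05, and their median log2 change was 0.00, 0.05 and 0.08. CLV1, a receptor kinase gene and the 1 meristem marker with a mean of at least 6, stood at 0.13, 0.24 and 0.28 (SE 0.080, adjusted p = 0.451, 0.0795 and 0.0574). STM, the KNOX gene that keeps the meristem, stood at -0.15, -0.11 and -0.04 (SE 0.13). KNAT1, a KNOX target of AS1, stood at -0.27, 0.06 and 0.19 with an SE of 0.28, and its mean in WT was 4.79, close to background.

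The 9 vascular markers averaged 7.42 to 7.57 across gra1-D arrays, 7.34 to 7.49 in gra2-D and 7.34 to 7.50 in gra3-D, against 7.38 to 7.60 in WT. Their median log2 change was -0.09, -0.12 and -0.12, and limma called 1, 2 and 1 of them. In each mutant 1 was higher, against 2.82%, 5.24% and 3.13% of all loci, and in gra2-D 1 was lower, against 6.23%. The xylem protease gene XCP1, which lies in the run of every mutant, rose in all of them, by 0.72 ± 0.12 (gra1-D), 0.59 ± 0.12 (gra2-D) and 0.57 ± 0.12 (gra3-D; limma, adjusted p = 0.0025, 0.00642 and 0.013). The XCP1 call in gra3-D ended without WT replicate 2 (adjusted p = 0.0625) or gra3-D replicate 3 (0.0556). The phloem sucrose transporter gene SUC2 fell by 0.26 ± 0.072 in gra2-D (limma, adjusted p = 0.0322). It was not called in gra1-D or gra3-D, but the fall was not particular to gra2-D. SUC2 had values of 10.31, 10.48 and 10.30 in gra1-D and 10.29, 10.42 and 10.28 in gra3-D, against 10.58, 10.53 and 10.63 in WT. Its log2 change in gra3-D was -0.25. The SUC2 call ended in 7 of 20 alternatives, among them without gra2-D replicate 1 or 3 or any 1 WT array (up to 0.103). MP, the auxin response factor that activates HB-8, stood at 0.05 ± 0.10 in gra2-D and 0.13 ± 0.10 in gra3-D and was not called (adjusted p = 0.843 and 0.620). In gra1-D, where HB-8 was not called, MP had values of 7.02, 6.84 and 6.78 against 6.81, 6.50 and 6.61 in WT. Its log2 change there lay between 0.17 and 0.33 over 20 alternatives, with a limma adjusted p of 0.0932 or higher. The part of vascular cell number in the HB-8 values was not tested.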

How the data were processed

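Per the labels, biotin-labelled total RNA was hybridized to ATH1 arrays. The authors deposited 1 table of log2 values, which per the submitters' processing notes came from RMA (version not stated), with 1 row per locus. That they are log2 follows from their range, and how probes were grouped into loci is not given in the sources used here. Arrays carry no read depth, so their number limits the precision.

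Group means of all 12 arrays were fitted across all 20777 loci with limma 3.58.1 in R 4.3.3 (lmFit and eBayes, 8 residual and 5.28 prior degrees of freedom), without a filter. Tests were two-sided, and p-values were adjusted by Benjamini-Hochberg within each of 6 contrasts, with a threshold of 0.05. The share of all loci at an unadjusted p under 0.05 was not counted, so the unadjusted counts of a list have no background beside them. The fit was tested on simulated data with noise drawn independently for each array. That setting lacks the correlation between arrays of equal number given below. HB-8 was tested against the median change of its run with the limma SE, adjusted over the expressed loci of the run (mean of at least 6). The labels do not say that equal replicate numbers share anything. Deviations from group means, over loci outside the runs, correlated at 0.249 or more in all 9 pairs of equal number among gra1-D, gra2-D and WT, and at r over 0.1 in 4 of 9 pairs with gra3-D. The fit has no replicate block, and fits with one are given where they differ.

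The members, run bounds and gene lists were chosen with earlier results of these data known. Apart from the members, the text names the 3 expressed loci on each side of HB-8, called genes of each list and 12 fixed pathway genes. It also names the loci most correlated with each expressed member, 2 for HB-8, REV and PHB and 1 for each other expressed member. Loci singled out beyond these were chosen after their values were seen. Alternatives were a replicate block, a further quantile normalization, centring on chromosomes 1, 2, 3 and 5, an intensity trend, array weights, a filter at a mean of 5, only the arrays compared and leaving out each array. A block over gra1-D, gra2-D and WT was added after seeing the data. Symbols came from a TAIR10.1 gene table or from common usage. No coordinates are given. Of 76 listed pathway and marker genes 68 were measured and the others were not analysed here, and 1 further gene is not reported.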

Additional observations from a re-analysis of the deposited data

Results flagged for a closer look

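Among the members and the listed pathway genes, the change against WT of 3 genes differed between mutants by limma's contrast of the mutants themselves. For HB-8, gra1-D minus gra2-D was -0.59 (adjusted p = 0.00109) and gra1-D minus gra3-D was -0.62 (adjusted p = 0.00212). For LUG, gra1-D minus gra2-D was -1.03 (adjusted p = 2.26e-06) and gra2-D minus gra3-D was 0.99 (adjusted p = 3.95e-06). For SGS3, gra1-D minus gra2-D was -0.46 (adjusted p = 0.0156). HB-8 and LUG lie in a run in 1 mutant of each pair and outside it in the other, while SGS3 lies on chromosome 5, outside every run.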

How the results depend on the processing

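HB-8 kept its call against WT in gra2-D (log2 0.53 to 0.60, adjusted p up to 0.00323) and in gra3-D (0.52 to 0.65, up to 0.00362) in all 20 and 19 alternatives, and the counts of called members, 0, 1 and 1, did not move. The replicate block also left them at 0, 1 and 1. Each array of gra1-D, gra2-D and WT correlated best with its own number in the other 2 groups (18 of 18), whereas with gra3-D 7 of 18 did. With the block over all groups, HB-8 stood at 0.56 in gra2-D and the lowest adjusted p of the other 9 genes was 0.0651 (REV in gra2-D), and over gra1-D, gra2-D and WT it was 0.0604 (PHB in gra2-D). That second block called 1820 and 3271 loci in gra1-D and gra2-D, in place of 1160 and 2383, and changed no call of a named gene in these mutants. Of the 531 alternative values of these 9 genes 0 were called, and 22 had the opposite sign at sizes up to 0.085. Without 1 array the departure of HB-8 from its run lay between -0.344 and -0.265 in gra2-D and between -0.356 and -0.233 in gra3-D, and its gra3-D call also ended with only the arrays compared (-0.277). Among the other genes named, SLK2 in gra3-D gained a call in 3 alternatives and SUC2 in gra3-D in 4. For SUC2 the replicate block over all groups was among these (-0.25, limma, adjusted p = 0.0435).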

Other observations

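Of 11294 other loci with a mean of at least 6, those most correlated with HB-8 over the 12 arrays were SPPL1 and CBL10, both in the run that gra2-D and gra3-D share (Pearson r = 0.977 each). For REV they were 4CL3 (0.946), a phenylpropanoid gene, and BAM3 (0.941), a receptor kinase gene of phloem, and for PHB they were MYR1 (0.943) and TADA (0.921). TADA also led for FIL (0.897), while GYRB3 led for YAB3 (0.952), AT1G26640 for AS1 (0.902), AT1G19880 for PHV (0.877), SYP23 for HB15 (0.853) and AT2G32090 for KAN1 (0.849). These are the highest values among many loci over arrays that share their groups, so they describe the arrays and carry no test.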
